A study of Mus musculus with 8 samples.

Results

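The 10 genes described here carry iron into cells, store it, release it or sense it: *Tfrc*, *Trf*, *Fth1*, *Ftl1*, *Slc11a2*, *Slc40a1*, *Cp*, *Ireb2*, *Aco1* and *Heph*. They were chosen by symbol from the 49585 genes listed in the deposited count table. RNA had been sequenced from whole brains of 8 newborn female mice at postnatal day 1, F1 hybrids of a C57BL/6J ('B') mother and a CAST/EiJ ('C') father (B × C). The mothers drank water with 0 ppm (n = 4 pups) or 50 ppm (n = 4 pups) CdCl2 before and during gestation, so the pups were exposed to cadmium (Cd) through the mother, and each pup came from a different litter. The comparison asks whether the RNA of these genes differed between the doses. Each library holds the poly(A) RNA of 1 homogenized whole brain, and in such bulk RNA fewer cells of a type and less RNA per cell cannot be told apart.

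Iron travels in blood bound to transferrin, is taken up through the transferrin receptor and leaves the endosome through a divalent metal transporter. Inside the cell it is kept in ferritin, a shell of heavy and light chains, and it leaves through ferroportin with the help of a ferroxidase. Iron regulatory proteins bind a hairpin called the iron-responsive element (IRE) when iron is scarce. Bound in the 3′ untranslated region (UTR) they protect a message from decay, and bound in the 5′ UTR they block its translation, which need not alter the amount of RNA.

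A canonical IRE was searched for in the annotated UTRs of the GRCm38 transcripts (GENCODE M21), since this hairpin sets apart the messages that iron regulatory proteins bind. The search asked, on the transcript strand alone, for an unpaired C, 5 bases, the loop CAGTGN and 5 bases that pair with the first 5 by A-T, G-C or G-T. It found 7 elements in 4 of the 10 genes. The letters in capitals mark the loop in each window of 30 bases.
*Tfrc* 3′ UTR, element 1, chr16:32631219-32631248, + strand: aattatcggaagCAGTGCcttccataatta
*Tfrc* 3′ UTR, element 2, chr16:32631598-32631627, + strand: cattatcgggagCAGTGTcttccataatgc
*Tfrc* 3′ UTR, element 3, chr16:32631663-32631692, + strand: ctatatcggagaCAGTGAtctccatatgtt
*Tfrc* 3′ UTR, element 4, chr16:32631710-32631739, + strand: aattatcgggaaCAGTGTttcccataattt
*Fth1* 5′ UTR, chr19:9982732-9982761, + strand: ttcctgcttcaaCAGTGCttgaacggaacc
*Ftl1* 5′ UTR, chr7:45459778-45459807, - strand: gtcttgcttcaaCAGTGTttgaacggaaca
*Slc40a1* 5′ UTR, chr1:45925464-45925493, - strand: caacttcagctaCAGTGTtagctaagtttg
The 2 ferritin genes have the same stem arms, and 1 of the *Tfrc* elements holds a G-T pair. The same motif was found in the 5′ UTR of 31 of 20597 genes (0.151%) and in the 3′ UTR of 129 of 20995 genes (0.614%). The other 6 genes had no match, which says only that these letters are not in their annotated UTRs.

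Total counts ranged from 22916434 to 30708087 per library. Of 23113 genes tested with edgeR, 4 (0.0173%) passed an adjusted p of 0.05, and 866 (3.75%) had an unadjusted p under 0.05. 2 of the control libraries stood apart. The summed level of 10 brainstem and spinal cord markers, among them *Hox* genes, was 6.38 CPM (counts of a gene per 1000000 counts of the library) in 0 ppm replicate 1 and 13.7 in replicate 2, against 55.5 and 66.5 in the other controls and 57.7 to 163 at 50 ppm. 2 of those 10 markers, *Hoxa3* and *Hoxa4*, had no read in any library. Another, *Gata3*, made up most of the 2 low sums, with 6.04 and 10.3 CPM in control replicates 1 and 2. It had 10.5 and 12.5 CPM in the other controls and 5.86 to 14.2 CPM at 50 ppm. The 8 neuronal markers summed to 6457 to 7461 CPM at 0 ppm against 6781 to 7219 CPM at 50 ppm, although the neuronal tubulin gene *Tubb3* had no read in any library.

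All 10 iron genes passed the filter on low counts, and none passed the adjusted p of 0.05 with edgeR or with DESeq2 in the alignment to the B genome. At an unadjusted p under 0.05 there were 2 of 10, *Cp* and *Tfrc*, both with the higher mean at 50 ppm, beside 3.75% of all genes tested and 2.31% of them in that direction. *Cp* was the only one of the 10 whose doses did not overlap, beside 2.09% of all genes tested. *Trf* held at most 1 read in a library. The median log2 fold change of the other 9 was 0.03, beside -0.003 over all genes tested.

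Compared per kilobase of exon (RPKM), the storage genes stood far above the rest. *Ftl1*, the ferritin light chain, had 258 ± 21.3 RPKM at 0 ppm (SD, n = 4), and *Fth1*, the heavy chain that oxidizes iron, had 138 ± 7.93 RPKM. The lowest of the 9 was the ferroxidase *Heph* at 1.15 ± 0.0421 RPKM, 225 times below *Ftl1*. Between these came *Tfrc* at 23.8 ± 5.86, *Ireb2* at 21.1 ± 1.60, *Aco1* at 18.7 ± 1.37, *Slc11a2* at 7.50 ± 1.25, *Slc40a1* at 3.34 ± 0.406 and *Cp* at 1.71 ± 0.116 RPKM. Over all 8 libraries, *Tfrc* could not be told from *Ireb2*, nor *Ireb2* from *Aco1*, by their ranges. The ranges of all other neighbours in this order did not overlap. Exon lengths came from a later annotation release than the one the authors counted on. They are the union of all annotated exons, 3469 bases for *Fth1* and 1340 bases for *Ftl1*. In CPM the order of these 2 was reversed, with means at 0 ppm of 480 for *Fth1* and 346 for *Ftl1*. Which ferritin chain stands higher thus rests on the lengths used.

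**Figure D1:**
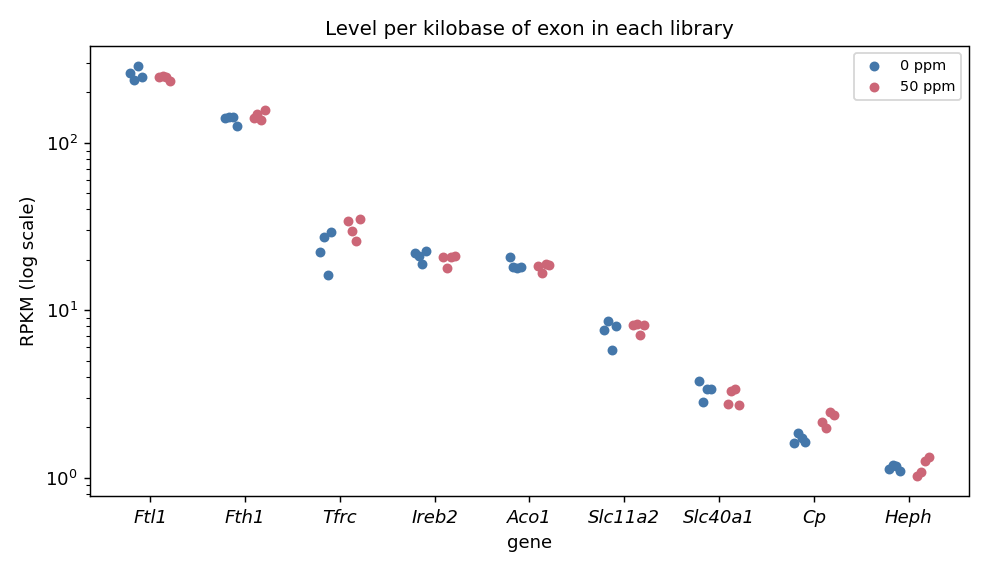
Level of 9 iron genes in each library, in RPKM (log axis), ordered by the mean at 0 ppm; each point is 1 pup, blue for 0 ppm and red for 50 ppm. The 2 ferritin genes lie highest, from 126 to 286 RPKM, and Heph lies lowest, from 1.03 to 1.32 RPKM.

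*Tfrc* (ENSMUSG00000022797, chromosome 16, 32608920 to 32632794, + strand) encodes the transferrin receptor and carries the 4 elements in its 3′ UTR shown above. Its libraries at 0 ppm had 137, 169.7, 101 and 182 CPM in replicates 1 to 4, and those at 50 ppm had 209.7, 183, 159 and 216 CPM. All 4 exposed brains lay above control replicates 1 and 3, but the lowest exposed brain, replicate 3, lay below control replicates 2 and 4. The means were 147 ± 36.2 CPM at 0 ppm against 192 ± 26.0 CPM at 50 ppm (SD, n = 4 each), a log2 fold change of 0.38 ± 0.14 (SE) with a 95% interval of 0.10 to 0.67. In edgeR the unadjusted p was 0.0119 and the adjusted p 0.999, and the exact two-sided permutation test of the mean log2 CPM gave p = 0.114.

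*Tfrc* was also the iron gene that varied most among the controls. The SD of its log2 CPM over the 4 controls was 0.38, larger than that of 98.0% of the 10330 genes with a mean of at least 10 CPM. Leaving out control replicate 3, its lowest library, lowered the log2 fold change to 0.24, and leaving out control replicate 4 gave 0.50. Without exposed replicate 4 its unadjusted p was 0.0597 (adjusted p 1.00), and with edgeR's robust fit 0.103 (adjusted p 0.999). Over the 14 alternatives its adjusted p ranged from 0.209 to 1.00. Without control replicates 1 and 2, which hold the fewest *Hox* reads, it had a log2 fold change of 0.44 (adjusted p 0.69, edgeR).

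*Cp* (ENSMUSG00000003617, chromosome 3, 19957054 to 20009145, + strand) encodes ceruloplasmin, the copper ferroxidase that works beside ferroportin. The control libraries had 15.4, 17.8, 16.6 and 15.5 CPM, and the exposed libraries had 20.5, 19.0, 23.6 and 22.7 CPM. The doses did not overlap. The means were 16.3 ± 1.11 and 21.4 ± 2.10 CPM (SD, n = 4 each), a log2 fold change of 0.39 ± 0.10 (SE) with a 95% interval of 0.18 to 0.61. The unadjusted p was 0.00112, the 45th smallest of all genes tested, and the adjusted p was 0.570 in edgeR. The exact permutation test gave p = 0.0286, the smallest that 4 against 4 allows.

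The authors had aligned the same reads to the C genome as well, and there only *Cp* could be matched among the 10, through the identifier that the study pairs with this symbol. In that alignment *Cp* had 16.4, 18.6, 17.3 and 16.6 CPM at 0 ppm against 22.1, 20.9, 24.9 and 24.3 CPM at 50 ppm, again without overlap. It had a log2 fold change of 0.42 ± 0.10 (SE), an adjusted p of 0.313 in edgeR and one of 0.0320 in DESeq2, which called 20 of the genes there. For the B genome DESeq2 gave *Cp* an adjusted p of 0.123, and the 14 alternatives spanned 0.123 to 1.00. Both alignments use the same libraries, so they are not independent measurements.

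Marker genes of several cell types also had higher values at 50 ppm. Of 9 astrocyte markers, 5 had an unadjusted p under 0.05, all with the higher mean at 50 ppm, and their sums ranged from 845 to 1049 CPM at 0 ppm against from 1052 to 1282 CPM at 50 ppm. Of 8 meningeal markers 4 did so, with sums of 735 to 825 and 905 to 1081 CPM. Of 14 oligodendrocyte and myelin markers 9 did so, with sums of 166 to 209 and 211 to 305 CPM, and *Bcas1* alone among the markers passed the adjusted p (0.0375, edgeR). Of 12 microglia and macrophage markers 3 did so, with sums of 144 to 179 and 167 to 205 CPM. None of 9 choroid plexus markers (474 to 1246 and 370 to 830 CPM) and none of 11 endothelial markers (387 to 457 and 395 to 472 CPM) had an unadjusted p under 0.05. No marker of these 6 lists was at 0 in every library. Within the controls *Cp* was highest in replicate 2, which also had the highest choroid plexus sum and the lowest astrocyte, oligodendrocyte and microglia sums. The meningeal sum of that library, 800 CPM, was neither the highest nor the lowest of the controls. Within the exposed libraries *Cp* was highest in replicate 3, which had the lowest astrocyte, oligodendrocyte, microglia and meningeal sums. Its choroid plexus sum, 578 CPM, was neither the highest nor the lowest at that dose. The endothelial sums in replicates 1 to 4 were 411, 408, 457 and 387 CPM at 0 ppm. At 50 ppm they were 405, 395, 467 and 472 CPM, higher in replicates 3 and 4, as *Cp* was. The part of these cell types in the *Cp* and *Tfrc* values was not tested.

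**Figure D2:**
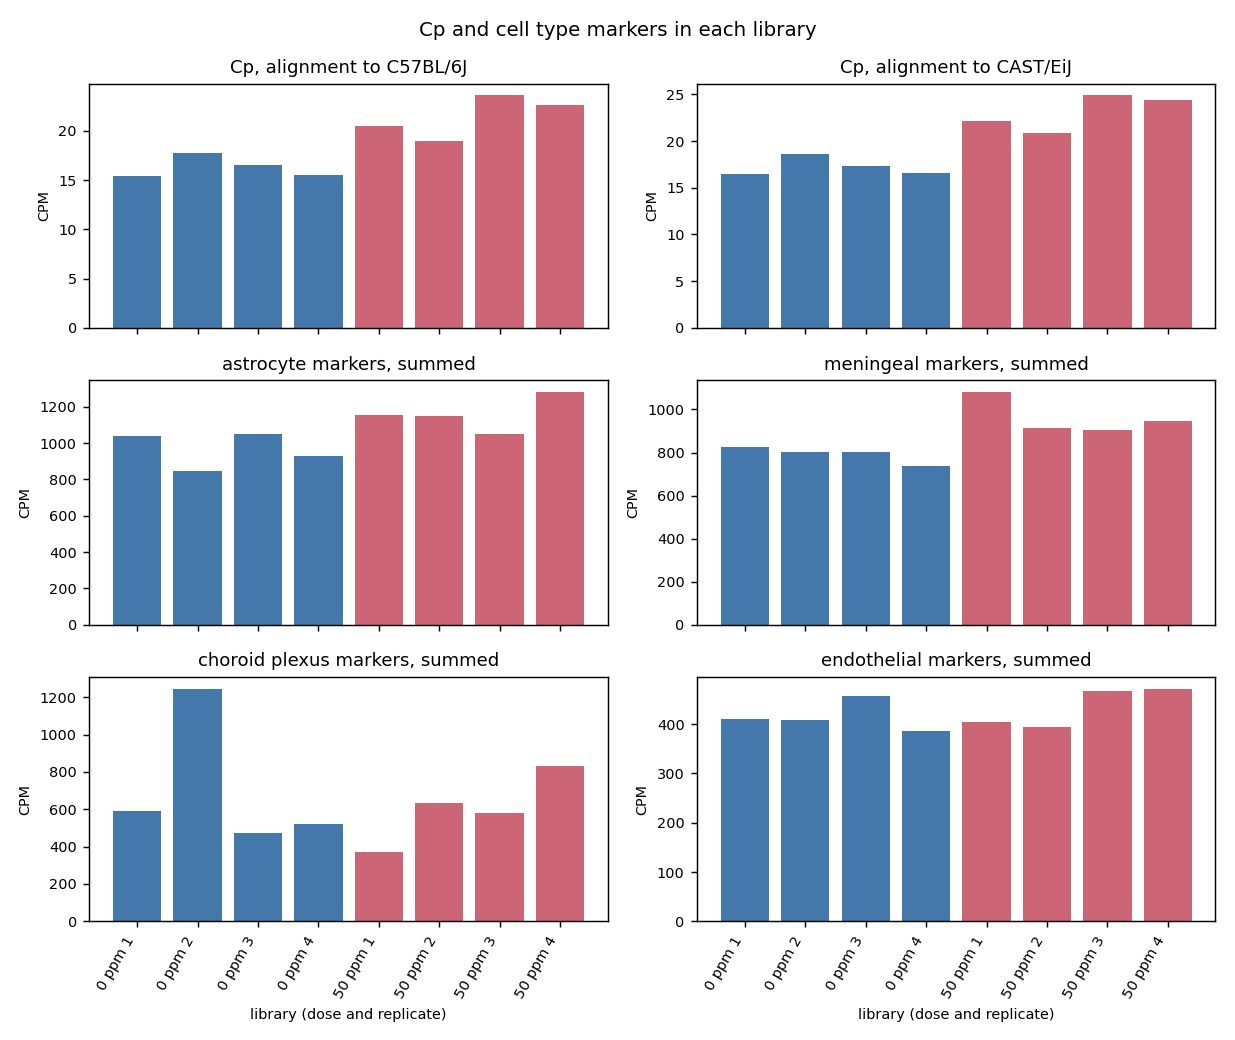
Cp in both alignments and the summed level of 4 lists of cell type markers, in CPM, for each library (bars are single pups; blue is 0 ppm, red is 50 ppm). Cp and the astrocyte and meningeal sums do not overlap between doses, while the choroid plexus sum is highest in 0 ppm replicate 2 (1246 CPM) and the endothelial sum overlaps. The gap of the astrocyte sums is narrow, with 1049 CPM in 0 ppm replicate 3 against 1052 CPM in 50 ppm replicate 3.

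Red cell markers varied widely between libraries of the same dose. The erythroid sum ranged from 128 to 313 CPM at 0 ppm against from 101 to 404 CPM at 50 ppm. None of the 10 of these 12 genes that were tested had an unadjusted p under 0.05, and *Hbb-bh1* had no read in any library. *Tfrc* is abundant in red cell precursors. Its lowest library, control replicate 3, had an erythroid sum of 259 CPM and its highest, exposed replicate 4, one of 206 CPM. Within the controls, replicate 4 had both the highest *Tfrc* and the highest erythroid sum (313 CPM). Within the exposed libraries, replicate 3 had the lowest *Tfrc* and the highest erythroid sum (404 CPM). The part of red cells in the *Tfrc* values was not tested. Of 15 genes of the hypoxia response, 3 (*Bnip3*, *Aldoc* and *Eno1*) had an unadjusted p under 0.05 with the higher mean at 50 ppm, and none passed the adjusted p (edgeR). In all, 12 had a higher and 3 a lower value at 50 ppm, with a median log2 fold change of 0.18. The sums of that list overlapped, at 1140 to 1521 and 1320 to 1490 CPM. The overlap came through control replicate 3 (1521 CPM), and the other controls had 1140 to 1200 CPM.

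*Slc11a2* (ENSMUSG00000023030, chromosome 15, 100387898 to 100425072, - strand) encodes the divalent metal transporter that moves iron out of the endosome, and it can carry cadmium. Its controls had 48.1, 55.1, 36.6 and 50.9 CPM and its exposed libraries 52.0, 52.9, 45.2 and 51.7 CPM, so control replicate 3 was again the lowest of all. The log2 fold change was 0.08 ± 0.10 (SE; adjusted p 0.999, edgeR). Its SD of log2 CPM over the controls, 0.26, was larger than that of 92.8% of genes. The gene is reported to have transcripts that end differently, with and without a 3′ element. The search above found no canonical element in it, and 1 count per gene cannot separate such transcripts.

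*Trf* (ENSMUSG00000032554, chromosome 9, 103204001 to 103230444, - strand) encodes transferrin itself, which oligodendrocytes and the choroid plexus are known to make. It had 1 read in each of 3 libraries, control replicates 1 and 2 and exposed replicate 3, and 0 reads in the other 5. Both doses lie under a floor of 3 counts, which is 0.0980 to 0.132 CPM in these libraries, so no fold change is given. The oligodendrocyte and choroid plexus markers above had reads in the same libraries.

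Exon overlaps were taken from GENCODE M21, a later annotation release than the one the authors counted on. There, 63.5% of the exon length of *Trf* is shared with *Gm20425* on the same strand, and 82.0% of transcript Trf-201 is. *Gm20425* had 4 reads, all in 1 library. Among protein-coding genes with at least 50% of their exon length under another gene of the same strand, 171 of 343 (49.9%) had at most 1 read in every library, and among those with no such overlap 3985 of 20076 (19.8%) had. By default HTSeq leaves reads on exons shared by several genes uncounted, and the mode used is not given in the sources used here. *Tubb3*, which shares no exon on its strand in GENCODE M21, was also at 0. Whether the counting step set the *Trf* value was not tested, and its RNA level in these brains is taken as not measured. At the protein level, the authors' proteomics of brains from the same pups listed transferrin as more abundant at 50 ppm.

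The ferritins had the deepest counts of the 10 genes, from 7085 to 15133 reads per library. *Fth1* (ENSMUSG00000024661, chromosome 19, 9980598 to 9985098, + strand) had 489, 497, 494 and 439 CPM at 0 ppm against 485, 517, 473 and 543 CPM at 50 ppm. *Ftl1* (ENSMUSG00000050708, chromosome 7, 45457944 to 45459884, - strand) had 351, 317, 384 and 332 CPM at 0 ppm against 331, 337, 330.1 and 313 CPM at 50 ppm. The doses overlapped for both chains. The log2 fold change was 0.07 ± 0.07 (SE) for *Fth1*, with a 95% interval of -0.07 to 0.22, and -0.08 ± 0.07 for *Ftl1*, with an interval of -0.22 to 0.07 (adjusted p 0.999 for both, edgeR). Of the exon length of *Ftl1*, 26.5% lies opposite another gene and 8.13% is shared with one on the same strand. Ferritin-like genes and ferritin pseudogenes were sought by symbols that start with Fth or Ftl, and their reads were few. Of 14 such genes, 11 were at 0, and the largest count in a library was 14. Pseudogenes under other names were not looked at.

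*Slc40a1* (ENSMUSG00000025993, chromosome 1, 45908068 to 45926523, - strand) encodes ferroportin, the exporter. It had 34.2, 25.3, 30.3 and 30.5 CPM at 0 ppm against 24.6, 29.8, 30.3 and 24.5 CPM at 50 ppm. Control replicate 1 was the highest library, and the doses overlapped through control replicate 2. The means were 30.1 ± 3.66 and 27.3 ± 3.16 CPM (SD, n = 4 each), a log2 fold change of -0.14 ± 0.11 (SE) with an interval of -0.36 to 0.08 (adjusted p 0.999, edgeR). Without control replicates 1 and 2 the exposed libraries all lay below the controls, with a log2 fold change of -0.16 (adjusted p 0.998, edgeR). That separation rested on 30.26 CPM in exposed replicate 3 against 30.27 CPM in control replicate 3. The share of all genes so separated in this smaller set was not computed. *Heph* (ENSMUSG00000031209, chromosome X, 96455359 to 96574485, + strand), the membrane-bound relative of ceruloplasmin, had 8.67, 9.08, 9.05 and 8.40 CPM at 0 ppm against 7.86, 8.32, 9.67 and 10.1 CPM at 50 ppm. The exposed brains spread on both sides of the controls, with a log2 fold change of 0.03 ± 0.12 (SE, adjusted p 0.999, edgeR).

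Of the genes of the iron regulatory proteins, *Ireb2* (ENSMUSG00000032293, chromosome 9, 54863789 to 54912530, + strand), which encodes iron regulatory protein 2, had 209, 199.5, 179 and 213 CPM at 0 ppm against 197, 169, 197 and 199.5 CPM at 50 ppm. *Aco1* (ENSMUSG00000028405, chromosome 4, 40143081 to 40198338, + strand) encodes the cytosolic aconitase that acts as iron regulatory protein 1 when it lacks its iron-sulfur cluster. It had 93.2, 81.1, 80.4 and 81.4 CPM at 0 ppm against 82.7, 74.7, 84.9 and 83.7 CPM at 50 ppm. The doses overlapped for both genes. The log2 fold changes were -0.07 ± 0.07 and -0.04 ± 0.07 (SE; adjusted p 0.999 for both, edgeR). For the 7 genes other than *Cp*, *Tfrc* and *Trf*, the 95% intervals of the ratio of 50 ppm to 0 ppm lay between 0.779 and 1.23.

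**Figure D3:**
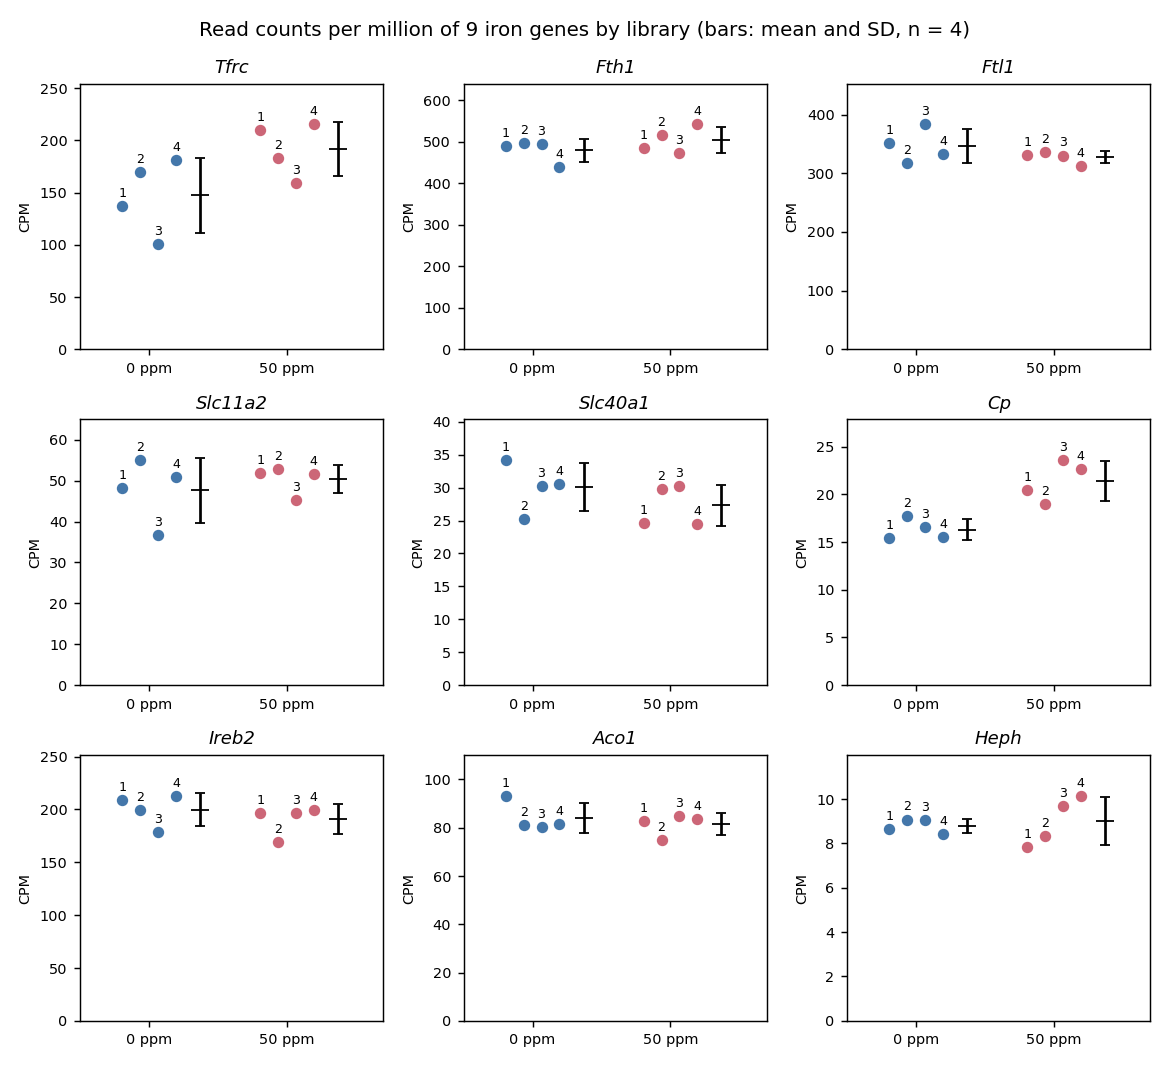
CPM of 9 iron genes in each library, numbered by replicate, with the mean and SD of each dose (n = 4) in black; the axes start at 0. The exposed libraries of Cp (19.0 to 23.6 CPM) all lie above the controls (15.4 to 17.8 CPM), while the doses overlap for the other 8 genes.

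**Figure D4:**
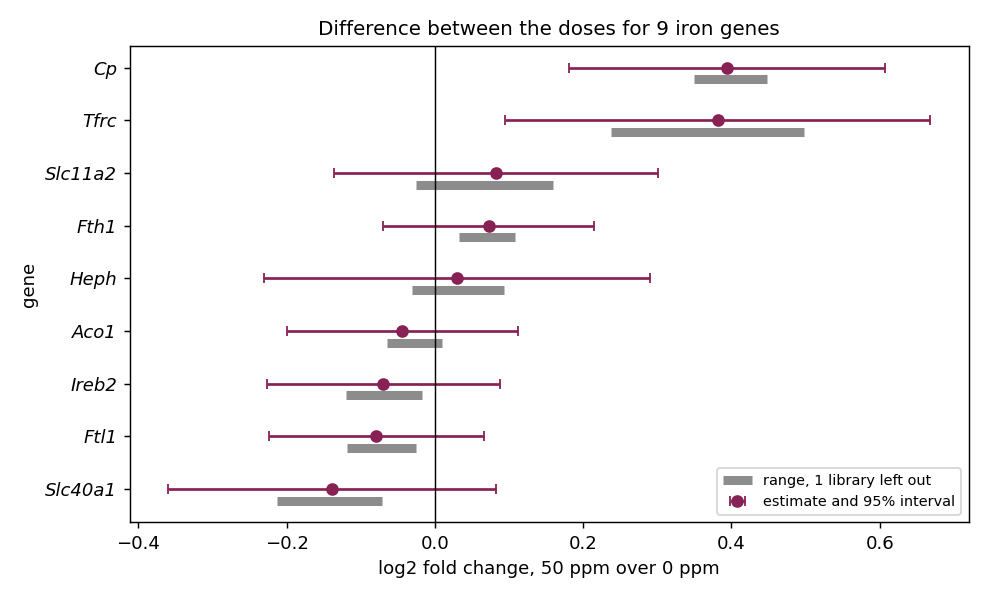
Log2 fold change of 50 ppm over 0 ppm for 9 iron genes, with the 95% interval (purple) and the range when 1 library is left out (grey). The intervals of Cp and Tfrc lie above 0 and those of the other 7 genes include 0.

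The rest of the pathway had no gene with an unadjusted p under 0.05 in edgeR, and none passed the adjusted p with edgeR or DESeq2. Of 70 other genes of iron and heme handling, 67 were tested, 37 with a higher and 30 with a lower value at 50 ppm, and their median log2 fold change was 0.003. The 19 genes of uptake, endosomal reduction and trafficking had a median of 0.03, and the 7 tested genes of storage, iron chaperones and heme breakdown one of -0.05. The 5 genes of export had a median of -0.02, the 9 of the hepcidin axis and sensors one of 0.07, the 18 of mitochondrial iron and iron-sulfur clusters one of -0.02, and the 9 of heme synthesis one of -0.02.

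Of the most abundant genes of these lists per exon length, *Snx3*, which recycles the transferrin receptor, had 72.1 ± 4.25 RPKM at 0 ppm and 71.0 ± 3.66 RPKM at 50 ppm (SD, n = 4 each). *Pcbp1*, which delivers iron to ferritin, had 93.1 ± 3.48 and 87.1 ± 4.17 RPKM. *Hspa9*, the chaperone of iron-sulfur cluster assembly, had 63.2 ± 4.49 and 65.9 ± 3.35 RPKM. These 3 genes had log2 fold changes of -0.02 ± 0.07, -0.10 ± 0.06 and 0.06 ± 0.07 (SE), and none of these had an unadjusted p under 0.05 in edgeR. *Neo1*, a receptor that binds hemojuvelin, *Flvcr1*, a heme exporter, and *Alad*, an enzyme of heme synthesis, had log2 fold changes of 0.01 ± 0.08, -0.02 ± 0.09 and -0.07 ± 0.09 (SE).

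The hormone that controls ferroportin was barely seen. *Hamp*, which encodes hepcidin, had at most 1 read in a library, and *Ftmt*, the mitochondrial ferritin, had none, which allows up to 3 counts or 0.0980 to 0.132 CPM. *Tfr2*, the second transferrin receptor and an iron sensor, had 5.58 to 8.52 CPM at 0 ppm against 6.85 to 8.49 CPM at 50 ppm, with a log2 fold change of 0.13 ± 0.14 (SE, adjusted p 0.999, edgeR). The 2 points farthest from 0 in the plot of the pathway lists are *Timd2*, a ferritin receptor, and *Hephl1*, a relative of *Heph*, each with at most 6 reads in a library and named after their values were seen. Outside the 10 iron genes, 8 genes reported to carry an IRE were looked at. Of these, *Alas2* and *Slc25a37* were also in the lists above. None of the 8 had an unadjusted p under 0.05 (edgeR), and their median log2 fold change was 0.04. The search described above found a canonical element in 1 of these 8, *Alas2*. The most abundant of the 8, *Pfn2*, had 148 ± 8.56 and 146 ± 10.3 RPKM.

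**Figure D5:**
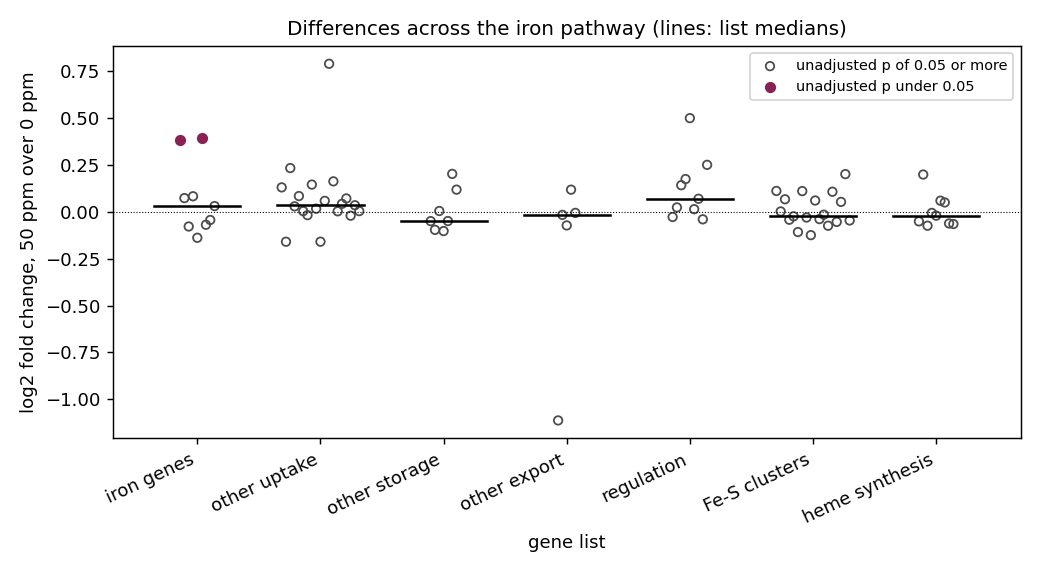
Log2 fold change of 50 ppm over 0 ppm for the 9 measured iron genes and for 6 lists of other iron and heme genes; each circle is 1 gene, filled where the unadjusted p is under 0.05, and black lines are medians. Only Cp and Tfrc are filled, and the list medians lie between -0.05 and 0.07.

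The genes whose profile over the 8 libraries was most like those of *Tfrc* and *Cp* were sought among 10329 genes with a mean of at least 10 CPM. Likeness was the root mean square difference of log2 CPM after each gene was scaled to a mean of 0 and an SD of 1. For *Tfrc* these were *Gm38393* (0.441), *Fbxl5* (0.456) and *Cdkl3* (0.484). *Fbxl5* differed far less between libraries than *Tfrc*, with 97.1 ± 7.96 CPM at 0 ppm against 102 ± 4.99 CPM at 50 ppm (SD, n = 4 each). For *Cp* they included *Nid1*, a basement membrane protein (0.410), and *Stom*, a membrane protein of red cells and other cells (0.420). *Nid1* had 106 ± 12.9 CPM at 0 ppm against 129.7 ± 17.7 CPM at 50 ppm, and *Stom* had 15.4 ± 2.40 and 20.02 ± 3.25 CPM. None of these genes passed the adjusted p (0.999 for each, edgeR).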

How the data were processed

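Whole-brain poly(A) RNA of 8 newborn B × C females was sequenced by the authors from strand-specific single-end libraries, trimmed, aligned with STAR and counted on genes with HTSeq; versions and the strand setting are not given in the sources used here. The authors deposited raw counts per gene, not normalized, once against the B genome (GRCm38) and once against the C genome (CAST/EiJ). All columns were mapped to pups by their labels (0 columns of other samples).

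Genes at 0 counts in over 2/3 of the libraries were removed. Counts were normalized by TMM and tested with glmQLFit and glmQLFTest of edgeR 4.0.16 (R 4.3.3), on dose alone, with p-values adjusted by Benjamini-Hochberg over all 23113 genes (threshold 0.05). CPM use TMM-scaled library sizes; RPKM are CPM per kilobase of the union of exons. The SE is the absolute log2 fold change over the square root of F. Log2 CPM for permutation tests, spread and likeness use a prior count of 2. Exact permutation tests used the 70 labellings, by Python 3.11.15 and its scipy 1.17.1. Symbols matched 49326 of 49585 identifiers. Libraries held 22916434 to 30708087 counts; for *Heph* (217 to 277 reads) and *Cp* (401 to 662 reads) counting error is not small beside the spread between pups.

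Alternatives were DESeq2 1.42.0, its size factors in edgeR, edgeR's robust fit, limma-voom (limma 3.58.1) with quality weights, no filter, a filter of 10 or more counts in 4 or more libraries, and each library left out. The C genome values of *Cp* and the fit without control replicates 1 and 2 were added after the data were seen. All 10 genes are named. Of the other iron lists a gene is named if its unadjusted p is under 0.05, if it is the most abundant of its list per exon length, or if it is *Hamp*, *Tfr2* or *Ftmt*; *Timd2* and *Hephl1* were named after their values were seen. For members with an unadjusted p under 0.05, the 3 genes of most similar profile are named, except that 1 result is not reported here. The members and lists were chosen with earlier results of these data known. The scripts were tested on simulated counts.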

Additional observations from a re-analysis of the deposited data

Results flagged for a closer look

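In groups of 4 libraries, a library was looked at again where its gap to the nearest other library took up most of the range of its dose. Of 18 groups tested (9 genes at 2 doses) 4 held such a library, and chance gives about 1 in 20. Control replicate 4 had 439 CPM of *Fth1*, against 489 in the next control. Control replicate 1 had 93.2 CPM of *Aco1*, against 81.4 in the next. Exposed replicate 2 had 169 CPM of *Ireb2*, against 197 in the next, and exposed replicate 3 had 45.2 CPM of *Slc11a2*, against 51.7 in the next. These are 4 different libraries, and each gene was past the limit at 1 dose only.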

How the results depend on the processing

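No paired analysis was possible because the labels give no replicate numbers, and those used here follow accession order and only name a pup. The number of iron genes past the adjusted p (0) and of the 67 other iron genes (0) did not move under any of the 15 alternatives. Iron genes with an unadjusted p under 0.05 numbered 2, and 1 with edgeR's robust fit (*Tfrc* was lost), with 1 to 2 when a library was left out. Iron genes whose doses did not overlap numbered 1, and 1 to 2 with a library left out: *Slc40a1* was added without control replicate 2 and *Tfrc* without exposed replicate 3. Without control replicates 1 and 2 there were 2 (*Slc40a1* and *Cp*). The gaps of the added genes were narrow. *Slc40a1* had 30.26 CPM in exposed replicate 3 against 30.27 CPM in control replicate 3. *Tfrc* had 183.3 CPM in exposed replicate 2 against 181.6 CPM in control replicate 4. The share of all genes without overlap in these smaller sets was not computed. The median log2 fold change of the 9 measured genes was 0.030, and -0.031 to 0.071 with a library left out, the lowest without exposed replicate 4. Over all genes, 4 passed with edgeR, 18 with DESeq2, 1 with limma-voom, 52 with no filter, 2 with the minimum of 10 counts, 7 without control replicates 1 and 2, and 2 to 20 with a library left out, the most without control replicate 3. *Cp* passed the adjusted p in the C alignment with DESeq2 (0.0320) and in no other fit. *Aco1*, *Heph* and *Slc11a2* changed sign in 2, 2 and 1 of the fits; none of these values passed the adjusted p. The causes were not tested. *Trf* RNA was not measurable, 9 genes have no C genome value here, and p-values rest on 4 pups a dose.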

Other observations

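Control replicate 3 had the lowest *Tfrc* (101 CPM), *Slc11a2* (36.6 CPM) and, among the controls, *Ireb2* (179 CPM), and the highest *Ftl1* (384 CPM). Over the 8 libraries, log2 CPM of *Tfrc* and *Ftl1* had Pearson's r = -0.89 (exact permutation p = 0.00689, adjusted over 36 pairs of iron genes 0.240) and Spearman's rho = -0.62 (p = 0.115, adjusted 0.595). *Tfrc* and *Slc11a2* had r = 0.86 (exact permutation p = 0.0152, adjusted 0.240) and rho = 0.64 (p = 0.0962, adjusted 0.595). Without the 2 libraries farthest from the median of *Tfrc*, r was -0.27 and 0.39. Leaving out the extremes of *Tfrc* narrows its range, which by itself tends to lower r. This step therefore cannot show whether the relations rest on those libraries alone. After the mean of each dose was taken away, r was -0.87 and 0.91. Of the 36 pairs 3 had a p under 0.05 and 0 passed the adjustment. The pairs were looked at after the values had been seen.

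Ratios within a library were also formed after the values had been seen. The heavy to light chain ratio of ferritin per exon length was 0.538 ± 0.0477 at 0 ppm and 0.596 ± 0.0525 at 50 ppm (SD, n = 4 each; exact permutation p = 0.143, adjusted over 3 ratios 0.214). Its size rests on the exon lengths used, since *Fth1* had the higher mean CPM at both doses. The ratio of *Tfrc* to *Fth1* was 0.174 ± 0.05004 and 0.213 ± 0.0241 (exact permutation p = 0.229, adjusted 0.229). The ratio of *Tfrc* to *Slc40a1*, uptake to export, was 7.28 ± 2.31 and 10.4 ± 2.54 (exact permutation p = 0.143, adjusted 0.214). None passed the exact permutation test, before or after adjustment.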
